A study of Mus musculus with 9 samples.

Results

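The named ribosomal protein pseudogenes are the genes whose symbols join the name of a ribosomal protein gene to -ps and a number, such as Rpl31-ps8. They were picked from the deposited table by symbol alone, and 254 of the 54146 genes matched, 157 named after large-subunit (Rpl) and 97 after small-subunit (Rps) proteins. By GENCODE M21 annotation 245 were processed pseudogenes, 5 transcribed processed pseudogenes and 4 protein-coding genes. In 29 the normalised count was 10 or more in 4 or more of the 9 mice, and these are the tested pseudogenes. Of the others, 53 were listed at 0 in every mouse and 172 had reads but stayed under that level. The parent gene is the one named before -ps. The 254 carried 61 parent names, and 60 of these genes were in the table, Rpl48 being the name not found there.

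Ribosomal proteins are the protein part of the ribosome, and their genes are among the most strongly transcribed in any growing cell. Processed pseudogenes arise when a spliced mRNA is copied back into DNA and inserted elsewhere in the genome, without introns and usually without the promoter of the parent. Abundant mRNAs have left the most copies, so ribosomal protein genes are among the main sources of them, and recent copies can match the coding sequence of the parent base for base.

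RNA-seq was performed on the colonic mucosa of 9 C57BL/6J mice at 15 wk of age. The labels give the tissue as colonic mucosa, and the methods describe RNA taken from colonic crypts. Both genotypes carried the Min mutation of Apc, a germline mutation of the intestinal tumor suppressor Apc on 1 allele. The 5 ApcMin/+ mice (2 females, 3 males) were the controls. The 4 ApcMin/+; p16cis/cis mice (3 females, 1 male) also carried, on both p16 alleles, a knocked-in cis-element that lets DNA methylation spread over the p16 promoter. The knock-in was a germline change, present in every cell type of the mucosa. The comparison asks which transcripts differ with p16 epimutation in an Apc-mutant colon.

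The libraries held 13523500 to 17885918 reads on genes, and the 254 pseudogenes took 927 to 5084 of them in each mouse. Cdkn2a, the gene of p16, was listed at 0 in all 9 mice, where 3 reads amount to normalised counts of 2.85 to 4.79, so its level could not check the genotype labels. Depth and some cell type markers moved with genotype or with ApcMin/+ replicate 4, a male. The depth was 15745098 reads or more in each ApcMin/+ mouse and 14900228 or fewer in each ApcMin/+; p16cis/cis mouse. Mitochondrially encoded genes took 8.74% to 15.6% of the reads in ApcMin/+ mice, 11.4% in replicate 4, and 19.3% to 29.8% in the mice of the other genotype. The summed level of 6 smooth muscle and stroma markers, all 6 tested, was 239 to 347 in the other 4 ApcMin/+ mice, 26.7 in replicate 4 and 32.9 to 149.9 in ApcMin/+; p16cis/cis mice. For 5 B and plasma cell markers it was 159.6 to 757, 34.3 and 34.5 to 134, and for the T cell markers, 5 of 6 tested, 377 to 749, 61.0 and 229.8 to 389. Colonocyte markers, 7 of 7 tested, were present throughout, with sums of 190870 to 208727, 323244 and 152819 to 171970 in the same order. Among them Car1 had 65000 to 82124, 165058 and 40059 to 68015, whereas Epcam had 27841 to 38616, 30336 and 24444 to 26913. Goblet marker sums were 188438 to 220098, 281987 and 217323 to 313863, and crypt stem sums 1694 to 2492, 1088 and 1411 to 2750. In both of these lists the genotypes overlapped. None of these lists had a member at 0 in all mice, and their part in the results below was not tested. In bulk RNA, fewer cells of a type and less RNA per cell cannot be told apart.

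How much of a pseudogene can be told from its parent decides what its reads mean, so the sequences are shown first. They come from the GENCODE M21 transcripts (GRCm38), are all coding sequence and run 5′ to 3′, and capitals mark the bases of a copy that differ from its parent and, in the parent, the positions at which a copy shown differs. Rpl31, a protein at the exit of the peptide tunnel, has one tested copy with no difference over its 378 bases, Rpl31-ps8 (window at chr15:90764331-90764420, minus strand), and one with 11, Rpl31-ps1 (chr12:91890948-91891037, minus strand), 5 of them in the window shown.
Rpl31: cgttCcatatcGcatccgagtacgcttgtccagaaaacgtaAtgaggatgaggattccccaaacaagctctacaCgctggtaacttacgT
Rpl31-ps8: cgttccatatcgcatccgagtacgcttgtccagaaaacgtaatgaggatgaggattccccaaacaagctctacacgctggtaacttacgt
Rpl31-ps1: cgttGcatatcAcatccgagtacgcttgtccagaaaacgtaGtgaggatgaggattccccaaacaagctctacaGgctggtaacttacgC
The copy Rpl31-ps8 shared all of its 50-base windows with Rpl31, whereas 86.9% of the windows of Rpl31-ps1 occurred in no other annotated gene.

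Rpl27a-ps2 (chr14:108692475-108692564, minus strand) was the called pseudogene with the lowest identity to its parent, 92.4%, and 10 differences fall in the window shown. Of its 50-base windows, 89.3% were found in no other annotated gene.
Rpl27a: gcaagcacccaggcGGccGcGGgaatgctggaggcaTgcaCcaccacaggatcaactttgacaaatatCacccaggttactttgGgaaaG
Rpl27a-ps2: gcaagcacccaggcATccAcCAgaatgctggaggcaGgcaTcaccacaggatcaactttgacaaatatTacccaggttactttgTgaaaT
Rps12, a small-subunit protein, has a pair of tested copies that differ from it at few positions, Rps12-ps10 (chr2:122220020-122220109, plus strand) at 4 of 399 bases and Rps12-ps9 (chr8:123206650-123206739, plus strand) at 2. They are shown because one was called and the other was not.
Rps12: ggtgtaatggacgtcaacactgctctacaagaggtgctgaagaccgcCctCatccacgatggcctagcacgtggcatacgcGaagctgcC
Rps12-ps10: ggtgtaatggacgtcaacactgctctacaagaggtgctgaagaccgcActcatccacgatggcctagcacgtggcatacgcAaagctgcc
Rps12-ps9: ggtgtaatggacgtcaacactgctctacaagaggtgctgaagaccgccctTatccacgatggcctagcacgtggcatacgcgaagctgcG
Rpl28-ps1 (chr1:128038569-128038628, plus strand) carried the largest fold change and did not differ from Rpl28, a large-subunit protein, at any of its 414 bases, of which the first 60 are shown.
Rpl28: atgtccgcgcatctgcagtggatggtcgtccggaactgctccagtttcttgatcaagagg
Rpl28-ps1: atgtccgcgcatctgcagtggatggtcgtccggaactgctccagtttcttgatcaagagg

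The tested pseudogenes fell into those that rose by a large factor in ApcMin/+; p16cis/cis mice and those that did not pass the test. By limma on log2(normalised count + 1), with Benjamini-Hochberg adjustment over the 14410 genes tested and a fold change over 2, 12 of the 29 (41.4%) were called higher and 0 lower. Among all genes tested 1.83% were called higher and 1.64% lower. The count must be read with the filter in mind. In 7 of the 12 no ApcMin/+ mouse other than replicate 4 reached 10, and the 4 ApcMin/+; p16cis/cis mice alone met the filter. In 1 of these 7, Rpl27-ps2, replicate 4 stayed under 10 as well. These 7 had to differ. Of the 22 that passed otherwise, 5 were called higher (22.7%). The median log2 fold change of the 29, those 7 included, was 1.20, beside -0.00 over all genes tested. With no filter it was -0.11 over the 201 pseudogenes with reads, beside -0.12 over all genes with reads. The DESeq2 test on recovered reads called 4 of the 12, and the edgeR quasi-likelihood test called 6 of the 29 higher.

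**Figure D1:**
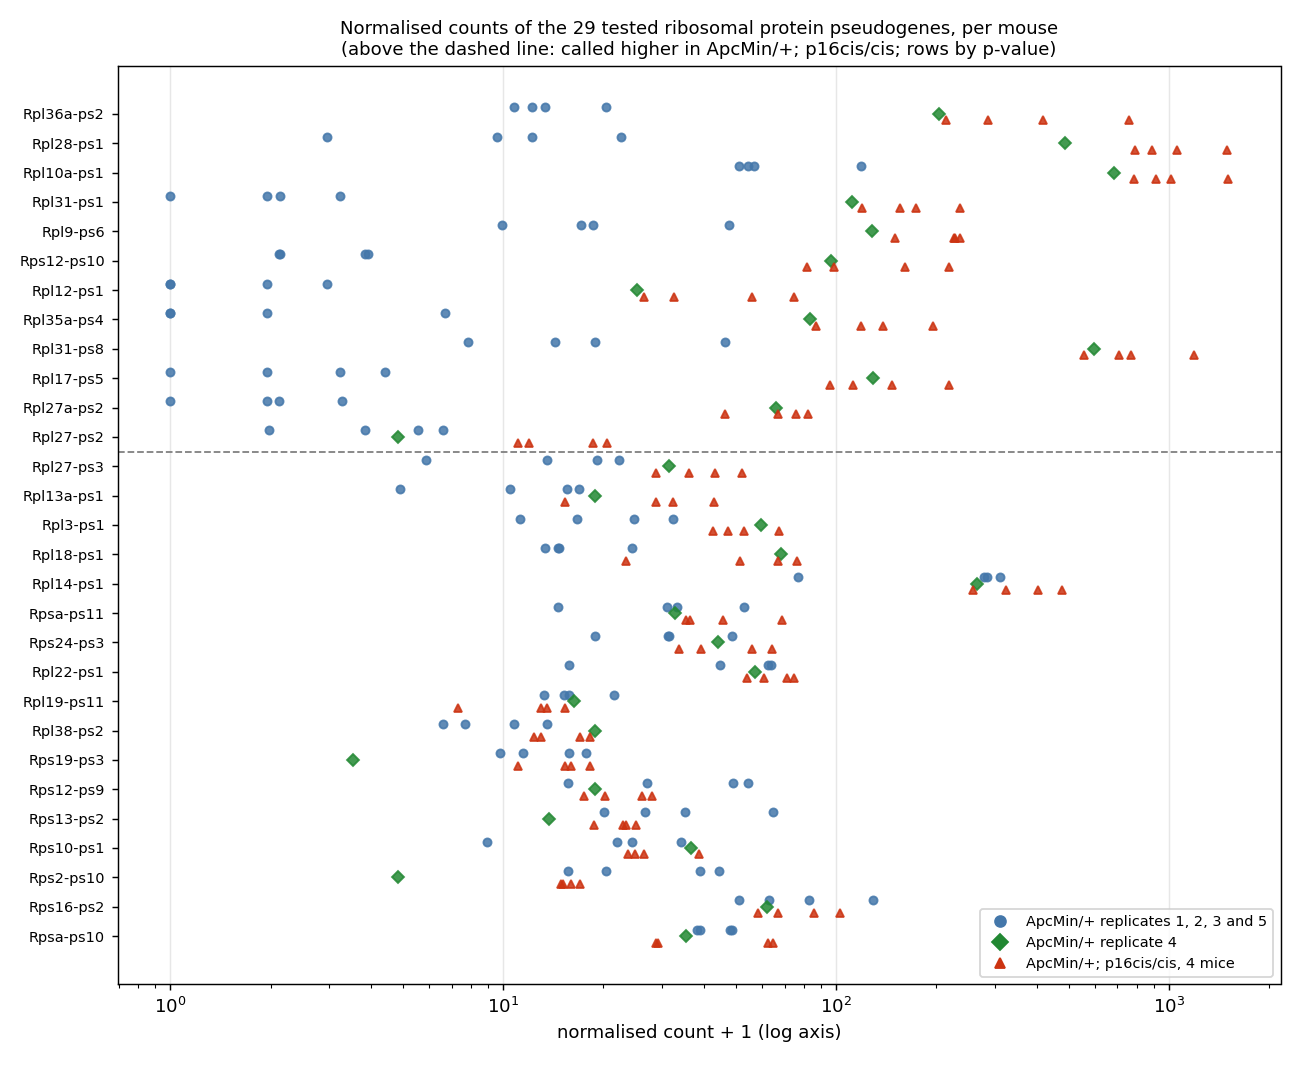
Normalised count plus 1 (log axis) of the 29 tested pseudogenes in each mouse, the 12 called ones above the dashed line. Circles are 4 ApcMin/+ mice, the diamond is ApcMin/+ replicate 4 and triangles are the 4 ApcMin/+; p16cis/cis mice, and in 11 of the 12 called pseudogenes the diamond lies above every circle.

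Large-subunit copies made up 19 of the 29 tested and 11 of the 12 called, and the difference between subunits was not tested. Rpl28-ps1 had normalised counts of 11.2, 8.56, 1.95 and 21.6 in ApcMin/+ replicates 1, 2, 3 and 5, 486 in replicate 4, and 789, 1058, 1491 and 888 in the ApcMin/+; p16cis/cis mice. The genotypes did not overlap, and replicate 4 stood above the other mice of its group but below all 4 ApcMin/+; p16cis/cis mice. Taking every mouse, the log2 fold change was 5.63 ± 1.08 (SE, adjusted p = 0.00745 by limma), and it was 6.77 (adjusted p = 1.08e-05 by limma) without replicate 4. The copy lies on chromosome 1 at 128038569 to 128038982, in an intron of Zranb3 on the opposite strand.

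Rpl31, Rpl10a (a protein of the L1 stalk) and Rpl36a (a protein near the exit site for tRNA) each had a called copy with the same bases as its coding sequence. Rpl31-ps8 (chromosome 15, 90764279 to 90764656) had 17.9, 13.3, 6.83 and 45.4 in ApcMin/+ replicates 1, 2, 3 and 5, 596 in replicate 4, and 556, 705, 1190 and 768 in ApcMin/+; p16cis/cis mice, a log2 fold change of 4.44 ± 0.97 (SE, adjusted p = 0.0118 by limma). Here replicate 4 fell within the range of the other genotype. Rpl10a-ps1 (chromosome 1, 64993951 to 64994604) rose from 50.2, 53.2, 55.6 and 118 in the same 4 ApcMin/+ mice, with 684 in replicate 4, to 784, 1013, 1500 and 913 (log2 fold change 3.28 ± 0.64, adjusted p = 0.00770 by limma). Rpl36a-ps2 (chromosome 3, 145879020 to 145879340, in an intron of Ddah1 on the same strand) had 11.2, 12.4, 9.76 and 19.3, then 203 in replicate 4, and 213, 286, 756 and 418 in ApcMin/+; p16cis/cis mice. Its adjusted p of 0.00705 by limma was the lowest among the 29, with a log2 fold change of 3.99 ± 0.75. In both Rpl10a-ps1 and Rpl36a-ps2 replicate 4 lay just under the lowest ApcMin/+; p16cis/cis mouse. The value in each of these 3 copies depends on how reads were divided among the copy, its parent and other genes that share its sequence. None of their 50-base windows is found in 1 gene alone. Windows of Rpl31-ps8 occur in 25 other genes, of Rpl36a-ps2 in 8 and of Rpl10a-ps1 in 5, the parents included. The same holds for Rpl28-ps1, whose windows occur in 4 other genes.

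Of the 9 tested copies with over 50% of their windows found in no other gene, 4 were called and 5 were not (Rpl13a-ps1, Rpl18-ps1, Rpsa-ps11, Rpl22-ps1 and Rps19-ps3, log2 fold changes 0.55 to 1.22). All 4 called ones reached the filter only through the mice in which they were high, so their values are a description. Rpl31-ps1 (chromosome 12, 91890896 to 91891273) had 2.23, 0.951, 0 and 1.14 in ApcMin/+ replicates 1, 2, 3 and 5 and 111 in replicate 4. The ApcMin/+; p16cis/cis mice had 119, 172, 234 and 155 (log2 fold change 5.27 ± 1.08, adjusted p = 0.00942 by limma). Rpl27a-ps2 (chromosome 14, 108692194 to 108692643) had 1.12, 0.951, 0 and 2.27, then 64.8 in replicate 4, against 45.5, 75.0, 81.1 and 65.8 (log2 fold change 4.09 ± 0.97, adjusted p = 0.0162 by limma). The ApcMin/+ mice other than replicate 4 were at or below 3 reads in both genes. Rpl27-ps2 (chromosome 11, 101939501 to 101939899), 93.7% identical to Rpl27 and with 73.4% of its windows found in no other gene, was not raised in replicate 4. It had 5.58, 2.85, 0.976, 3.81 and 4.54 in ApcMin/+ replicates 1 to 5 and 10.1, 17.5, 19.5 and 10.97 in ApcMin/+; p16cis/cis mice (log2 fold change 1.83 ± 0.49, adjusted p = 0.0260 by limma), the smallest of the 12 changes.

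The remaining large-subunit copies were Rpl12-ps1, Rpl17-ps5, Rpl35a-ps4 and Rpl9-ps6. Rpl12-ps1 (chromosome 1, 36957930 to 36958427), a copy of a protein of the stalk base, went from 0, 0.951, 1.95 and 0, with 24.2 in replicate 4, to 31.6, 25.5, 73.6 and 54.8 (log2 fold change 4.01 ± 0.85, adjusted p = 0.0108 by limma). Rpl17-ps5 (chromosome 5, 22612628 to 22613182), a copy of a protein that lines the peptide tunnel, had 2.23, 0.951, 0 and 3.41, then 128 in replicate 4, and 94.7, 112, 218 and 146 in ApcMin/+; p16cis/cis mice (log2 fold change 4.73 ± 1.09, adjusted p = 0.0151 by limma). Rpl35a-ps4 (chromosome 2, 108874926 to 108875258) had 0, 0.951, 0 and 5.68, then 82.6 in replicate 4, and 85.9, 137, 194 and 117 (log2 fold change 4.99 ± 1.08, adjusted p = 0.0115 by limma). All 3 were thus at 5.68 or lower in the ApcMin/+ mice other than replicate 4. Rpl17-ps5 and Rpl35a-ps4 had no window of their own, while 46.3% of the windows of Rpl12-ps1 were found only there. Rpl9-ps6 (chromosome 19, 32465865 to 32466578), the only tested member annotated as protein-coding, had 8.93, 16.2, 17.6 and 46.5, then 127 in replicate 4, and 149, 234, 227 and 226 (log2 fold change 2.85 ± 0.60, adjusted p = 0.0101 by limma).

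Of the 10 tested small-subunit copies 1 was called, Rps12-ps10 (chromosome 2, 122219993 to 122220391), with 1.12, 2.85, 2.93 and 1.14 in ApcMin/+ replicates 1, 2, 3 and 5, 95.3 in replicate 4, and 80.8, 97.3, 218 and 159.8 in ApcMin/+; p16cis/cis mice (log2 fold change 4.48 ± 0.95, adjusted p = 0.0106 by limma). Rps12-ps9, the other tested copy of Rps12, had 48.0, 53.2, 14.6, 17.8 and 26.1 in ApcMin/+ replicates 1 to 5 and 16.4, 19.1, 27.05 and 25.1 in ApcMin/+; p16cis/cis mice. Its groups overlapped, with a log2 fold change of -0.37 ± 0.41 (adjusted p = 0.559 by limma). The difference between the changes of both copies was not tested.

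ApcMin/+ replicate 4 stood apart from its genotype in nearly every called pseudogene. It exceeded the other 4 ApcMin/+ mice in 11 of the 12 called pseudogenes, by over 4-fold of their highest value (count + 1) in 10. Among the 17 not called, replicate 4 exceeded them in 6, and by over 4-fold in 0. It lay within the ApcMin/+; p16cis/cis range in 4 of the 12 and under it in 8. Summed over the 12, the normalised counts were 97.6 to 269 in the other ApcMin/+ mice, 2606 in replicate 4 and 2959 to 6202 in ApcMin/+; p16cis/cis mice. Against the same 4 ApcMin/+ mice, the median log2 difference of the 12 was 5.07 for replicate 4 and 5.28 for the ApcMin/+; p16cis/cis mice. Both differences share those 4 mice, and 7 of the 12 passed the filter only through the mice in which they were high.

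**Figure D2:**
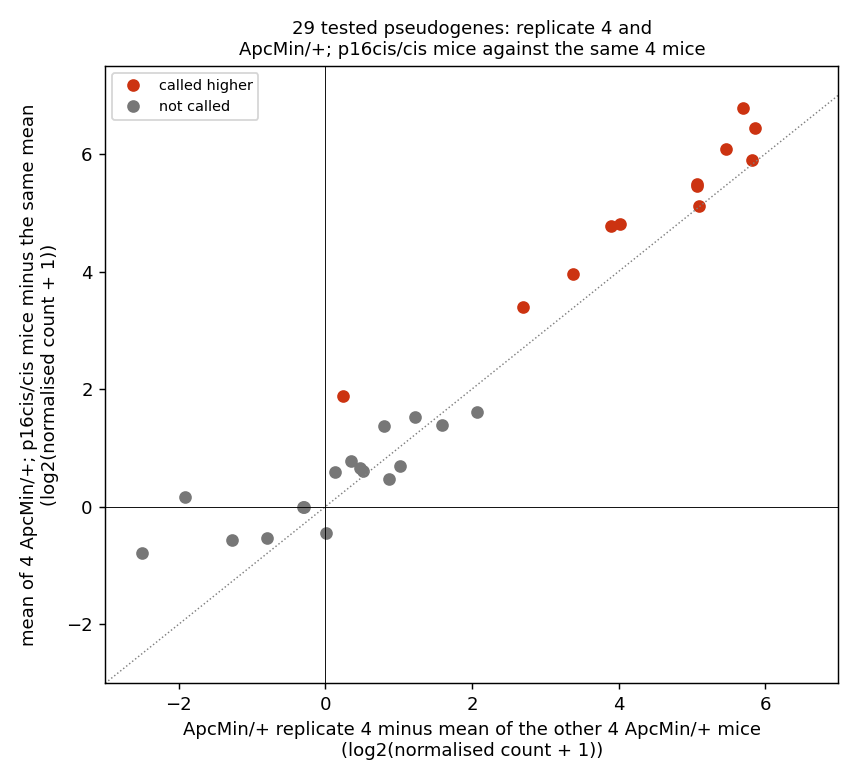
Each point is 1 of the 29 tested pseudogenes, with the log2 difference of ApcMin/+ replicate 4 from the mean of the other 4 ApcMin/+ mice on the horizontal axis and that of the 4 ApcMin/+; p16cis/cis mice on the vertical axis (log2(normalised count + 1), dotted line where both are equal). The called pseudogenes other than Rpl27-ps2 lie at 2.70 to 5.86 for replicate 4 and at 3.39 to 6.77 for the ApcMin/+; p16cis/cis mice.

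The genotypes did not overlap in 8 of the 29, all 8 higher in ApcMin/+; p16cis/cis mice, beside 7.24% of all genes tested that lay wholly higher and 8.95% wholly lower. Without replicate 4 the test called 15 of the 29 higher and 0 lower, against 2.24% called higher and 3.0% called lower among all genes. The 12 were among the 15, and the added ones were Rpl27-ps3, Rpl3-ps1 and Rpl18-ps1. The 15 thus include the 7 that met the filter only through the mice in which they were high. Of those 7, Rpl31-ps1, Rpl12-ps1, Rpl35a-ps4 and Rpl27-ps2 are also among the 8 without overlap. The filter alone kept Rpl27-ps2 from overlapping. Rpl18-ps1 had 23.4, 12.4, 13.7 and 13.6 in the 4 ApcMin/+ mice, 67.4 in replicate 4 and 50.5, 22.3, 75.1 and 65.8 in the other genotype.

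The 17 tested pseudogenes that were not called had log2 fold changes of -0.45 to 1.29 and adjusted p-values of 0.0688 to 0.929 by limma. Their summed counts were 539 to 770.3 in ApcMin/+ mice, replicate 4 included, and 719 to 1163 in ApcMin/+; p16cis/cis mice, so the groups overlapped. Rpl14-ps1, with the highest mean count of them, had 283, 309.97, 278, 264 and 76.1 in ApcMin/+ replicates 1 to 5 and 258, 324, 475 and 404 in ApcMin/+; p16cis/cis mice (log2 fold change 0.70 ± 0.37, adjusted p = 0.203 by limma). Rps16-ps2, with the same bases as the coding sequence of Rps16, had 50.2, 61.8, 81.9, 61.0 and 128 against 65.7, 84.5, 57.1 and 102 (log2 fold change 0.06 ± 0.29, adjusted p = 0.915 by limma). Replicate 4 was the lowest mouse in Rps2-ps10, Rps19-ps3 and Rps13-ps2, at 3.81, 2.54 and 12.7, while the other mice ranged from 13.9 to 43.5, from 8.78 to 17.2 and from 17.7 to 63.6.

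At the edge of the filter, the fourth-highest value was 10.1 for Rpl27-ps2 and 12.49 for Rpl38-ps2, just inside, and 9.02 for both Rpsa-ps4 and Rpsa-ps12, just outside. Rpsa-ps4 ranged from 2.27 to 11.2 in ApcMin/+ mice and from 6.27 to 11.2 in the others, and Rpsa-ps12 from 3.41 to 15.2 and from 0 to 9.02. Of the 172 pseudogenes with reads below the filter, 14 reached 10 in some mouse, and the highest value was 28.4. Their sum was 244 to 322 in the other ApcMin/+ mice, 243 in replicate 4 and 229.8 to 275 in ApcMin/+; p16cis/cis mice, with overlap. Between 120 and 140 members had reads in each ApcMin/+ mouse and between 95 and 115 in each of the others, whose libraries were shallower.

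Of 59 tested parents 7 (11.9%) were called higher and 0 lower. The median log2 fold change was 0.36, and 0.41 over the 78 tested cytoplasmic ribosomal protein genes, of which 9 were called higher and 0 lower. None of the 11 parents of the called copies was itself called, their log2 fold changes running from -0.14 to 0.80, and 6 had an adjusted p under 0.05 by limma (Rpl28, Rpl10a, Rpl12, Rpl31, Rpl27 and Rpl27a). Rpl28 had 219, 144, 177, 182 and 163 in ApcMin/+ replicates 1 to 5 and 278, 260.0, 365 and 334 in ApcMin/+; p16cis/cis mice (log2 fold change 0.80 ± 0.16, adjusted p = 0.00875 by limma). Replicate 4 sat with its own genotype here, unlike in Rpl28-ps1. Rpl36a had 85.9, 95.1, 90.7, 39.4 and 71.5 against 54.3, 75.0, 58.6 and 81.5 (log2 fold change -0.14 ± 0.27, adjusted p = 0.765 by limma).

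Among the other parents with a named copy, Rpl31 had 81.7 to 116 in the other 4 ApcMin/+ mice, 103 in replicate 4 and 135 to 202 in ApcMin/+; p16cis/cis mice (log2 fold change 0.69 ± 0.18, adjusted p = 0.0226 by limma). Rpl10a had 522 to 579, then 437 in replicate 4, and 627 to 1208 (log2 fold change 0.74 ± 0.17, adjusted p = 0.0155 by limma). Rpl12 had 222 to 241, then 211, and 277 to 404, Rpl27a had 502 to 567, then 492, and 594 to 916, and Rpl27 had 80.6 to 130.3, then 108, and 140.4 to 183. In these 5 the genotypes did not overlap, but the changes stayed under 2-fold. Of the 59 tested parents 11 (18.6%) lay wholly higher and 0 wholly lower, beside 7.24% and 8.95% of all genes tested. Rpl9 had 89.8 to 145, then 97.9, and 104 to 235, and Rps12 had 133 to 176, then 174, and 146 to 241. Rpl35a had 827 to 949, then 1035, and 847 to 1124, and Rpl17 had 77.2 to 258, then 305, and 263 to 314. These 4 overlapped between genotypes and had adjusted p-values of 0.268 to 0.377 by limma. Rpl14 had 1896 to 3128, then 3244, and 3059 to 3785 (log2 fold change 0.33 ± 0.15, adjusted p = 0.155 by limma). Rpl38 had 299.7 to 489.7, only 83.9 in replicate 4, and 208 to 289 (log2 fold change -0.25 ± 0.43, adjusted p = 0.718 by limma).

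**Figure D3:**
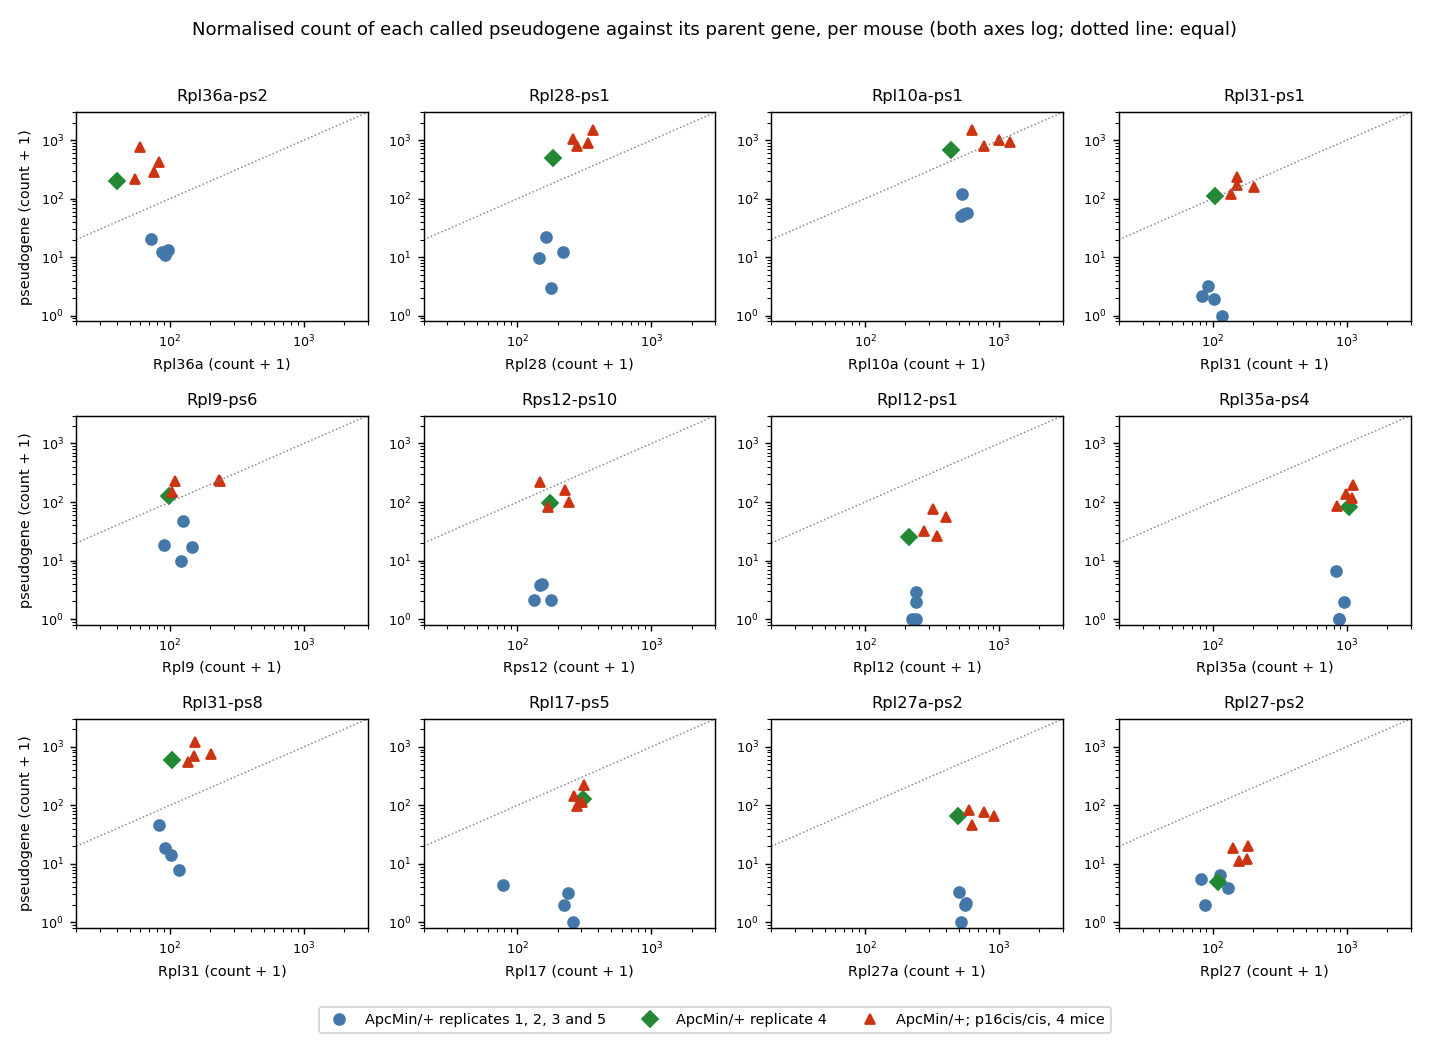
Normalised count plus 1 of each of the 12 called pseudogenes (vertical, log axis) against that of its parent gene (horizontal, log axis) in each of the 9 mice, with the dotted line where both are equal. Circles are 4 ApcMin/+ mice, the diamond is ApcMin/+ replicate 4 and triangles are ApcMin/+; p16cis/cis mice. In 11 of the 12 panels the diamond lies above every circle, and no parent was called.

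The 7 called parents were Rpsa, Rpl19, Rpl13, Rpl35, Rps10, Rps4l and Rpl39, and in each of them replicate 4 again lay above every other ApcMin/+ mouse. The same held in parents not called, such as Rpl7a, Rplp0, Rpl32 and Rps18, but not in others such as Rpl28 and Rpl36a. The summed count of all parents was 136324 in replicate 4, 86797 to 114205 in the other ApcMin/+ mice and 123113 to 149838 in ApcMin/+; p16cis/cis mice. Rps4l is itself annotated as a transcribed processed pseudogene. Rpsa, a small-subunit protein also known as the laminin receptor, had 79.2, 83.7, 101 and 97.6 in ApcMin/+ replicates 1, 2, 3 and 5, 343 in replicate 4, and 302, 489.7, 599.6 and 549.9 in ApcMin/+; p16cis/cis mice (log2 fold change 1.99 ± 0.38, adjusted p = 0.00755 by limma). Its tested copies did not move in this way. Rpsa-ps10 had 34.3 to 47.7 in ApcMin/+ mice and 27.8 to 63.8 in the others, and Rpsa-ps11 13.6 to 51.7 and 34.5 to 67.6. Rpl19 had 20.1, 19.0, 20.5 and 11.4, then 66.1 in replicate 4, and 68.2, 116, 91.7 and 108 (log2 fold change 2.0 ± 0.42, adjusted p = 0.00987 by limma), while Rpl19-ps11 had 12.3 to 20.5 and 6.31 to 14.4. Rps16 was low in every ApcMin/+; p16cis/cis mouse, at 107 to 128, and in ApcMin/+ replicates 4 and 5, at 68.6 and 45.4. ApcMin/+ replicates 1, 2 and 3 had 684, 749 and 912.

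The division of counts within a family was followed as the share of the named pseudogenes in the sum of parent and pseudogenes. It is a share of counts, not corrected for length, and genes outside a family that share sequence with it are left out. Of the 25 families with a tested pseudogene, 12 had an exact permutation p under 0.05 (two-sided, over every split of the 9 mice into 5 and 4, smallest possible p 0.00794, unadjusted), and 14 had one without replicate 4 (smallest possible p 0.0286). Without any other single mouse the count was 2 to 4, and after Benjamini-Hochberg adjustment over the 25 families 0 were under 0.05 with all mice (lowest adjusted value 0.0992) and 0 without replicate 4. In the Rpl28 family the share was 7.98%, 10.1%, 3.72% and 11.7% in ApcMin/+ replicates 1, 2, 3 and 5, 72.8% in replicate 4 and 72.8% to 80.4% in ApcMin/+; p16cis/cis mice (exact permutation p = 0.0238). In the Rpl31 family, with 22 named pseudogenes, it was 14.4% to 50.3%, then 87.6%, and 82.5% to 90.5% (exact permutation p = 0.0397). In the Rpl36a family it was 12.3% to 22.2%, then 83.9%, and 79.2% to 92.8% (exact permutation p = 0.0397). The copies thus took most counts of these 3 families in replicate 4 and in every ApcMin/+; p16cis/cis mouse.

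In the Rpl19 and Rpsa families the share was lower in ApcMin/+; p16cis/cis mice. The pseudogene share of Rpl19 was 41.9% to 58.3% in the other ApcMin/+ mice, 22.4% in replicate 4 and 10.4% to 14.1% in ApcMin/+; p16cis/cis mice (exact permutation p = 0.0159). That of Rpsa was 46.2% to 59.7%, then 21.3%, and 13.8% to 23.9% (exact permutation p = 0.0317). In the Rps16 family the share was 6.84% to 8.24% in ApcMin/+ replicates 1 to 3, 47.1% and 73.9% in replicates 4 and 5, and 30.9% to 47.8% in the other genotype (exact permutation p = 0.579). When each parent and its named pseudogenes were summed to 1 value before the fit, 11 parents were called higher, and Rpl36a went from a log2 fold change of -0.14 to one of 1.88 ± 0.34 (adjusted p = 0.00564 by limma).

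**Figure D4:**
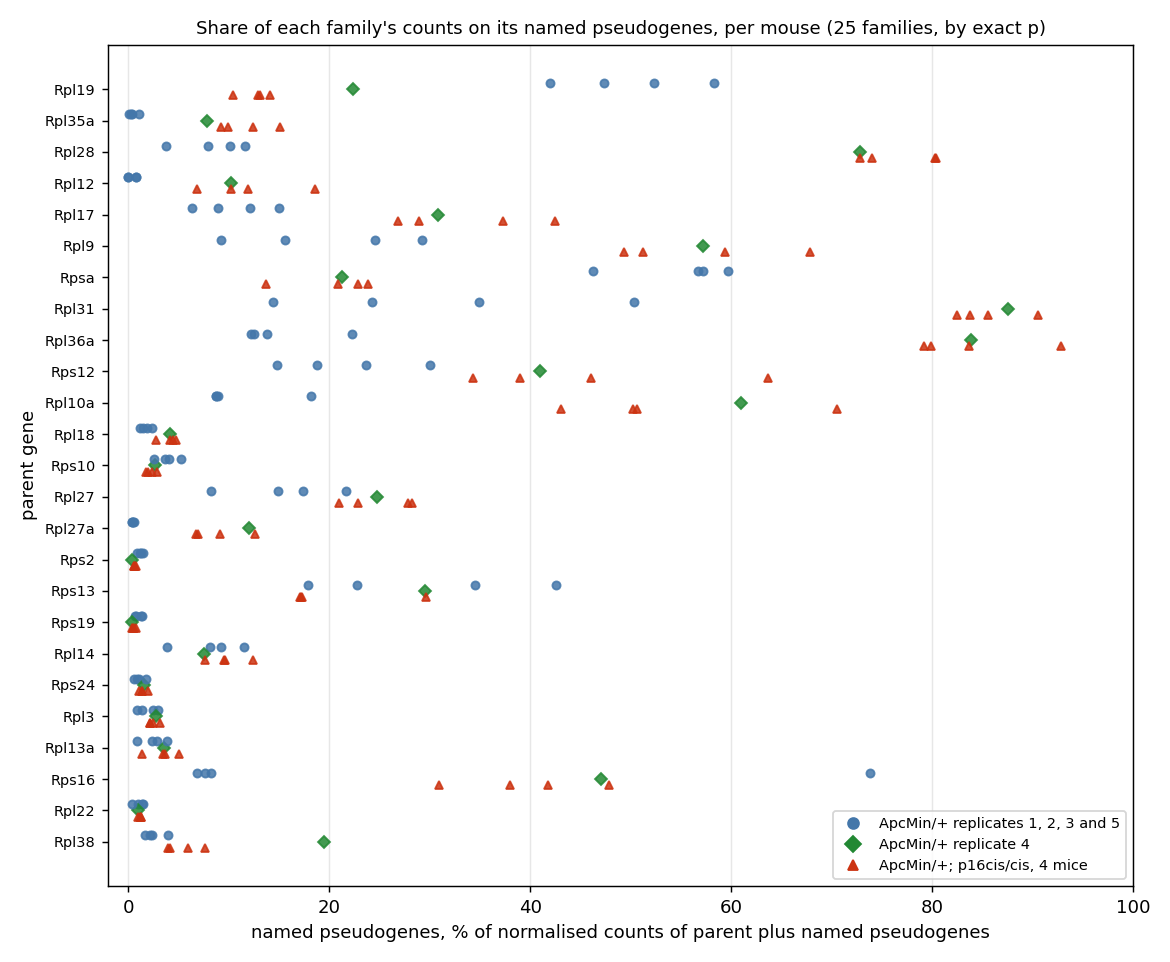
Share of each family's normalised counts that lay on its named pseudogenes (percent of parent plus named pseudogenes), in each of the 9 mice for the 25 families, ordered by exact permutation p. In the Rpl28, Rpl31 and Rpl36a families replicate 4 (diamond) lies at 72.8% to 87.6% with the triangles, and in the Rpl19 and Rpsa families the circles lie to the right at 41.9% to 59.7%.

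Sequence was compared between the called and the other tested pseudogenes as a description. The called ones had a median identity of 99.7% to the parent (range 92.4% to 100%), the 17 not called 99.3%, and the 225 below the filter 95.3%. A copy with no difference from its parent occurred 4 times among the 12 and 4 times among the 17 (Rpl27-ps3, Rpl38-ps2, Rps13-ps2 and Rps16-ps2). The median share of 50-base windows found in no other annotated gene was 5.41% in the called, 21.7% in those not called and 64.5% below the filter. Of the called, 6 had no such window, and 4 had over 50%. An open reading frame at least as long as that of the parent was present in 11 of the 12 called, 8 of the 17 not called and 71 of the 225 below the filter, the called exception being Rpl27-ps2. Rpl18-ps1 counts among the 8 against a short isoform of Rpl18. It aligned to Rpl18 over 11.4% of its length only, at 62.7% identity, and shared no 50-base window with it. No tested pseudogene overlapped an exon of a protein-coding gene on its strand.

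**Figure D5:**
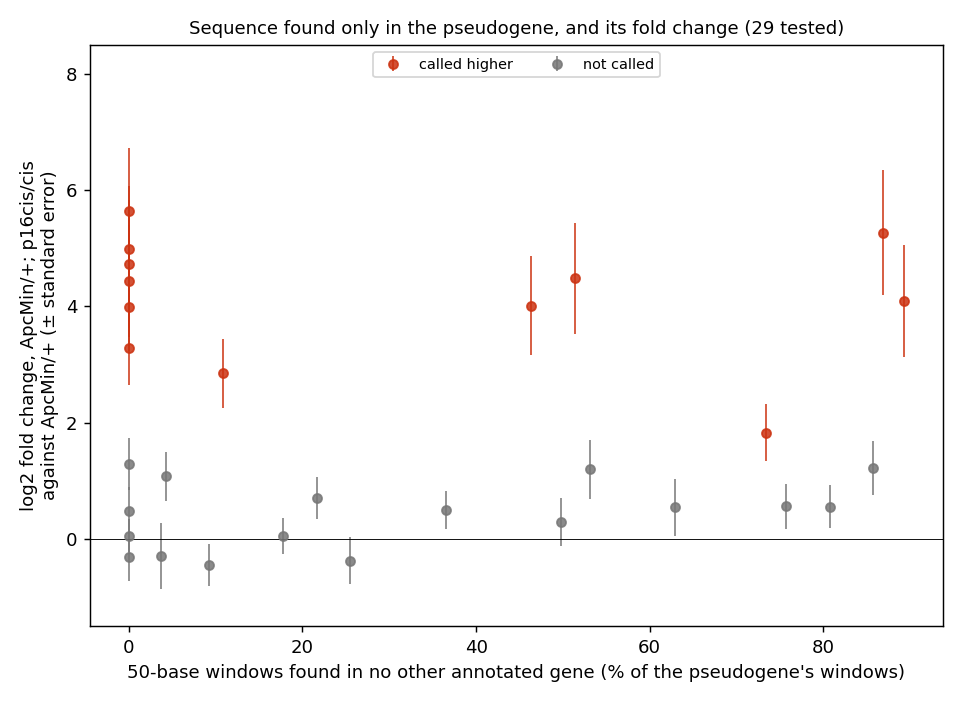
Log2 fold change by limma (± standard error) of the 29 tested pseudogenes against the percentage of their 50-base windows found in no other annotated gene. Called pseudogenes (red) lie at both ends of the axis, 6 at 0% and 2 at 86.9% and 89.3%.

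Other groups of genes give the setting. Of 35 tested pseudogenes with other parent names, 3 were called higher and 3 lower, and of 155 processed pseudogenes with Gm names, 25 higher and 12 lower. Of 22 translation factors, which start, extend and end protein synthesis on the ribosome, 0 were called in either direction by limma, with 5 at an adjusted p under 0.05 and higher and 2 lower. Of 19 tested mitochondrially encoded genes, 8 were called higher and 0 lower. Among all genes tested 1.83% were called higher and 1.64% lower.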

How the data were processed

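RNA from colonic mucosa (crypts, per the methods) of 9 mice was sequenced, each mouse being 1 replicate. Per the methods, the authors aligned reads with BOWTIE2, estimated gene levels with RSEM, which divides reads shared by several genes by a model, and compared groups with DESeq2. The genome build and tool versions of this step are not given in the sources used here. The deposited values are a signal, that is, estimated counts scaled to each mouse's size factor. Dividing by the value of 1 read gave whole reads to within 0.01 for 100% of them. Identifiers were matched to GENCODE M21 (GRCm38), 54079 of 54146 without regard to version, all 254 pseudogenes included.

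Calls came from limma 3.58.1 (R 4.3.3, trended variances) on log2(normalised count + 1), with genotype as the only term, across 14410 genes (10 or more in 4 or more mice), at a Benjamini-Hochberg adjusted p under 0.05 and a fold change over 2. A test for raw counts had been planned in case the table held them. edgeR 4.0.16 and DESeq2 1.42.0 on recovered reads were alternatives, as were other filters, pseudocounts, scalings, covariates and samples. Replicate numbers name different mice and were not treated as pairs. Family shares were tested by exact permutation over mice. Family p-values were adjusted over the 25 families, which were chosen with results known. Members and lists were chosen with earlier results of these data known. By rule, values are given for the called pseudogenes, the 6 with the highest mean, 2 on either side of the filter, the parents of these, and any of them with a mouse set apart. Other genes named were chosen after their values were seen. Identity was taken from local alignments (Biopython 1.88) to the best-matching transcript of the parent, untranslated parts included. It covers only the aligned part of a pseudogene. Open reading frames were compared with the coding sequence of the parent, and windows of 50 bases were searched in all annotated transcripts. On simulated data for this comparison, 88.5% of 200 genes changed by 2 on the log2 scale were recovered, 3.28% of the calls were false, and 0 calls were made with none changed. Each gene was drawn on its own, with no difference shared across genes such as that of replicate 4 or of the mitochondrial share. The rate of false calls may therefore not carry over to these data. Floors of 3 reads correspond to values of 2.85 to 4.79 and cover counting error only.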

Additional observations from a re-analysis of the deposited data

Results flagged for a closer look

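Of 60 groups of 4 or 5 mice examined among the named pseudogenes and parents, 13 held a mouse set apart from the rest of its group by Dixon's criterion. The groups share the same 9 mice, and many of the genes were named because they were called or high. The 13 therefore cannot be set against a number expected by chance. ApcMin/+ replicate 4 was that mouse in 11 of the 13, high each time. Its normalised counts were 203 for Rpl36a-ps2, 486 for Rpl28-ps1, 684 for Rpl10a-ps1, 111 for Rpl31-ps1, 95.3 for Rps12-ps10, 24.2 for Rpl12-ps1, 82.6 for Rpl35a-ps4, 596 for Rpl31-ps8, 128 for Rpl17-ps5, 64.8 for Rpl27a-ps2 and 343 for Rpsa. ApcMin/+; p16cis/cis replicate 1 stood apart with 149 for Rpl9-ps6, below the other mice of its genotype. ApcMin/+ replicate 5 stood apart with 76.1 for Rpl14-ps1, below the other ApcMin/+ mice. No cause was tested.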

How the results depend on the processing

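The count of pseudogenes called higher, 12, was 5 with DESeq2, 6 with edgeR under TMM and 6 under RLE factors, and 0 with the mitochondrial share as a covariate, where limma left 4 at an unadjusted p under 0.05, the median log2 fold change was 1.11 and 0 of all 14410 genes tested were called (798 at an unadjusted p under 0.05). That share moves with genotype, so both cannot be told apart. With no filter on low values 3 were called lower (Rpl17-ps8, Rpl3-ps2 and Rps15a-ps8, none above 20.9 in any mouse) and the median log2 fold change was -0.11. Leaving out 1 mouse at a time gave 11 to 15 called higher and 0 lower, and a median of 0.93 to 1.40. The parents called higher, 7, were 3 with DESeq2, 4 with edgeR under TMM, 4 under RLE, 0 with the mitochondrial share, 11 summed with their pseudogenes and 3 to 8 without 1 mouse. With the replicate number as a block, on mice that share only a number (correlations of their deviations -0.175 to 0.142), 11 pseudogenes and 4 parents were called higher and 1 parent lower. With the mitochondrial share, Rpl9 reversed to -0.68 and Rps12 to -0.22, and Rpl36a became 1.88 when summed. Families with an exact permutation p under 0.05 numbered 2 to 14 without 1 mouse, 14 without ApcMin/+ replicate 4 and 2 to 4 without any other. Fewer splits raise the smallest possible p whichever mouse is left out, to 0.0286 without replicate 4. In females alone that p cannot go below 0.05. Over 28 named genes, 518 of 601 alternative values kept their direction and their side of an adjusted p of 0.05. In 77 the adjusted p was no longer under 0.05, in 3 it came under it, and 3 reversed direction. Fold change was not part of this count, which includes parents that were never called. Windows of 100 bases, chosen after seeing the data, gave median shares found in no other gene of 9.92% in the called and 39.0% in the other tested pseudogenes. Low counts limit the copies near 0 in ApcMin/+ mice. Apart from these, the cause was not tested.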
